A study of Mus musculus with 8 samples.

Results

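Immunoglobulin gene segments were followed in RNA from the corpus of the mouse stomach. The members were every gene of the count table annotated as an immunoglobulin constant (C), variable (V), joining (J) or diversity (D) segment whose reads, summed over the 8 libraries, reached 20. That gave 172 of the 264 such segments among the 54532 genes of the table: 11 of 13 C, 152 of 218 V, 9 of 14 J and none of 19 D segments. Of the V members 75 were heavy-chain, 74 kappa and 3 lambda segments, and 45 of the 264 segments had no read in any library. The sum ran over both groups, and 121 members had under 20 reads in the 4 controls together, so that most members entered through the mutants. Just inside the threshold lay Ighv1-62-2 and Ighv14-1, each with 21 reads, and Ighj2 with 25. Just outside it lay Ighv1-31, Ighv1-49, Ighv1-63, Igkv12-38 and Igkv9-129, each with 17.

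The libraries came from 4 control and 4 mutant mice of a mixed C57BL/6 and CD1 background, with no treatment. Controls had the genotype Six2-Cre+/- PKAcaR wt/wt and mutants Six2-Cre+/- PKAcaR fl/wt, so that all 8 mice carried the Cre transgene. Six2 is a transcription factor gene, and the labels do not say which stomach cells had recombined, nor the age or sex of the mice. Polyadenylated RNA of whole corpus tissue was sequenced, 1 library per mouse.

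A B cell builds the gene for each antibody chain by joining 1 V and 1 J segment, and in the heavy chain a D segment between them, in front of a constant region. The descendants of that cell carry the same joined gene, whereas the constant region of the heavy chain can be exchanged by class switching, from IgM (Ighm) to IgG (Ighg genes) or IgA (Igha). Plasma cells are the antibody-secreting descendants, and in mucosal tissue they mainly make IgA, which is linked by the J chain (Jchain) and carried across the epithelium by the polymeric immunoglobulin receptor (Pigr).

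The germline sequences of the V segments that held the most reads in the 2 libraries standing apart in V usage are given first, because the results on usage turn on them. Ighv1-82 (chr12:115952538-115952837) and Ighv1-75 (chr12:115833950-115834249), on the minus strand, and the kappa segments Igkv10-96 (chr6:68631963-68632260) and Igkv8-30 (chr6:70117061-70117360), also on the minus strand, held most V reads of mutant 2. Ighv11-2 (chr12:114048241-114048540, minus strand) and Igkv14-126 (chr6:67896345-67896642, plus strand) led in control 1. Each line is the end of the coding part of the V exon, up to 300 bases, in the GRCm38 reference, and the capitals mark the stretch from the conserved cysteine codon to the end of the segment, where the join is made.
Ighv1-82: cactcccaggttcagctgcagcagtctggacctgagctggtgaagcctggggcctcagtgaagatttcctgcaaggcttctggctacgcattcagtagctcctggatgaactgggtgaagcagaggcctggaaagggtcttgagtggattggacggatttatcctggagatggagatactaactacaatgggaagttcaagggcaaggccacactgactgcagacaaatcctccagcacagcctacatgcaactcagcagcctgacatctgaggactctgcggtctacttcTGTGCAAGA
Ighv1-75: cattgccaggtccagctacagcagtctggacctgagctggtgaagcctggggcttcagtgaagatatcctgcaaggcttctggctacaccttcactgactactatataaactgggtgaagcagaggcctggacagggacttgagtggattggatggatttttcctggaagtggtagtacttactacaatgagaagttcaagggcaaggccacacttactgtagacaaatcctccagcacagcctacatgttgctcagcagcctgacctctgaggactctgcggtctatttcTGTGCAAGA
Ighv11-2: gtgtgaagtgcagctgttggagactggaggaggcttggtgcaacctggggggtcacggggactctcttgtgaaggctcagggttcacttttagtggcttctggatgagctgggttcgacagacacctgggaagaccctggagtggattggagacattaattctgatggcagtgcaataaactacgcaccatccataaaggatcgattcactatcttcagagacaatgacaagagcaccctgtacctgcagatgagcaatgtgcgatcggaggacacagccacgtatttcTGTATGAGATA
Igkv10-96: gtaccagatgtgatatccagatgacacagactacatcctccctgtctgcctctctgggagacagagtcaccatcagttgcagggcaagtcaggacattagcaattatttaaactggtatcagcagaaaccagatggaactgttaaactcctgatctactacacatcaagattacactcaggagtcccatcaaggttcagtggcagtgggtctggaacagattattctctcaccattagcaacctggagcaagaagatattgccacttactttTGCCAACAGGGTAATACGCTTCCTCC
Igkv8-30: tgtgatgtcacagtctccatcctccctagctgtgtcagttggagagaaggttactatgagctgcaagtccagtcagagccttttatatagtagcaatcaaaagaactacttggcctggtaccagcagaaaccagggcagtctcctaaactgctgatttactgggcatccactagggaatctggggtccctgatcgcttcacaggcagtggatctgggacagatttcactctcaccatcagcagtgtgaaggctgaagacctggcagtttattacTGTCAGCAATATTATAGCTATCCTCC
Igkv14-126: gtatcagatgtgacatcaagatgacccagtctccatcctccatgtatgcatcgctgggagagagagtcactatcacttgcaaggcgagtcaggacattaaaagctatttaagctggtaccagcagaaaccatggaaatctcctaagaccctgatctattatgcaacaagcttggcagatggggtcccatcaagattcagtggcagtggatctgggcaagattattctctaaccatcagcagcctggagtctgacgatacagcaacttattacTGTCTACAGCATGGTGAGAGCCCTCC
Over the whole coding exons Ighv1-82 and Ighv1-75 were 89.2% identical, while Igkv10-96 and Igkv8-30 were 66.5% identical. Of all stretches of 100 bases in the spliced transcripts of Ighv1-82, Igkv8-30 and Igkv14-126, 100% occurred in no other annotated gene. The share was 82.9% for Ighv1-75, 87.1% for Igkv10-96 and 75.2% for Ighv11-2. It was 100% for 91 of the 152 V members and under 50% for 3 of them (Ighv1-62-2, Igkv8-16 and Igkv6-20). All 11 constant-region members had no shared stretch of that length, although Iglc2 and Iglc3 were 96.2% identical in coding sequence. How the authors' counting treated reads that match several segments is not given in the sources used here, and alleles of the CD1 background may differ from these sequences, so reads of closely related V segments are uncertain.

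The 8 libraries held between 18184281 and 23814720 counted reads. Prkaca, the gene of the catalytic subunit of protein kinase A that the PKAcaR allele is named for, was at 86.0, 79.8, 77.8 and 77.1 CPM (reads scaled to a common library size with TMM factors) in controls 1 to 4 and at 36.8, 40.7, 37.0 and 37.1 in mutants 1 to 4. Squamous epithelium genes of the forestomach (7 listed) summed to 235 CPM in control 3 and 606 CPM in mutant 3 against at most 3.13 CPM in the other libraries. Y-linked reads were at an appreciable level in 3 libraries, control 2 and mutants 1 and 2. Of 11 tested corpus epithelium genes 3 were lower (Pgc, Chia1 and Atp4a) and 2 higher (Muc6 and Tff2) in mutants by the test used below. Over all genes tested 10.8% were lower and 9.39% higher. Gkn1, Gkn2, Muc5ac, Gif, Atp4b and Tff1 did not pass, but were lower in every mutant than in every control (16.1% of all genes tested were). The corpus list summed to 370280 to 593233 CPM in controls and 12227 to 101672 CPM in mutants, lowest in mutant 2. Hemoglobin and other red blood cell genes (6 listed) summed to 36.4 to 74.6 CPM in controls and 17.7 to 397 CPM in mutants, highest in mutant 2, and the pan-leukocyte genes (6 listed) to 155 to 205 CPM in controls and 171 to 855 CPM in mutants, again highest in mutant 2. None of 5 tested red blood cell and 3 tested squamous genes passed the test. The part of these differences in the immunoglobulin values was not tested.

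All 172 members together gave 644, 275, 120 and 165 CPM in controls 1 to 4 and 1507, 9096, 1768 and 1421 CPM in mutants 1 to 4. As shares of all counted reads these were 0.0524%, 0.0220%, 0.00825% and 0.0138% in controls, and 0.189%, 1.19%, 0.219% and 0.182% in mutants. Such shares also depend on the corpus transcripts, which filled more of the control libraries. Every mutant thus lay above every control, and mutant 2 lay far above the other mutants. The mean was 11.5 times higher in mutants, 5.20 times without mutant 2 and 18.5 times without control 1. In whole tissue, more antibody-secreting cells and more transcript per cell cannot be told apart.

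Of the 172 members, 85 had enough reads to be tested, and 49 of them rose and none fell in mutants by edgeR's quasi-likelihood test over all genes, at a Benjamini-Hochberg adjusted p under 0.05. Over all 15862 genes tested, 9.39% rose and 10.8% fell. At an unadjusted p under 0.05, 1 member, Igkv14-126, was lower (17.5% of all genes were), and 63 were higher (18.9%). The median log2 fold change of the tested members was 3.39, or 3.31 with the 1 tested member without a control read, Ighv1-19, held at its lower bound. Over all genes tested the median was 0.07. These counts describe members that had been chosen by their reads and support nothing on their own. The 51 members with 20 or more control reads entered without help from the mutants, and of the 44 tested among them 14 rose and none fell, with a median log2 fold change of 2.40. Of the 41 tested members with fewer control reads, 35 rose. Such members entered through their mutant reads, so the tests of single ones named below are no support on their own. DESeq2 called 50 members higher and none lower, where 14.6% of all genes were higher. These were 41 of the 49 and 9 others, and the remaining 8 of the 49 (Igkc, Ighv1-82, Ighv1-75, Ighv1-26, Ighv3-6, Igkv10-96, Igkv1-117 and Igkv4-72) were given no adjusted p by DESeq2. With column totals as library sizes, which shift the median of all genes by 0.70 on the log2 scale and call 59.3% of them higher, 68 members were higher and none lower.

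Before any test, 89 of the 172 members were higher in every mutant than in every control, none were lower in every mutant, and 83 overlapped. Among the 85 tested members 56 were separated in this way. For all genes tested the shares were 14.2% higher and 16.1% lower. By class, 2 of 7 heavy-chain constant genes, the kappa constant gene, 1 of 3 lambda constant genes, 19 of 30 tested heavy V segments, 24 of 41 kappa V segments, 1 of 2 lambda V segments and the 1 tested heavy J segment rose. A log2 fold change below 0 was found for 5 of the 85 (Ighm, Ighg3, Igkv14-126, Igkv17-121 and Igkv4-80), and none of these passed the test. Without control 1 the sign turned for 3 of them, Ighm (1.26), Igkv17-121 (1.37) and Igkv4-80 (0.50), again with none passing. Leaving out 1 library at a time, 18 of the 49 calls held in all 8 fits, and the number of members that rose ranged from 31 without control 3 to 62 without mutant 2. Without both libraries with squamous transcripts it was 26, and without control 1 and mutant 2 it was 64, 43 of them among the 49. With a Y-linked covariate 35 rose (33 of the 49) and with a replicate block 31 (29 of the 49). The share of all genes called higher moved as well. It was 4.32% without control 3 and 15.2% without mutant 2. Without both libraries with squamous transcripts it was 3.67%, and without control 1 and mutant 2 it was 12.2%. The covariate gave 5.59% and the block 4.71%. Igkc, Ighv1-82, Ighv1-75, Ighv5-17 and Iglc1 lost their calls with the covariate, with the block and without a filter on low counts.

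**Figure D1:**
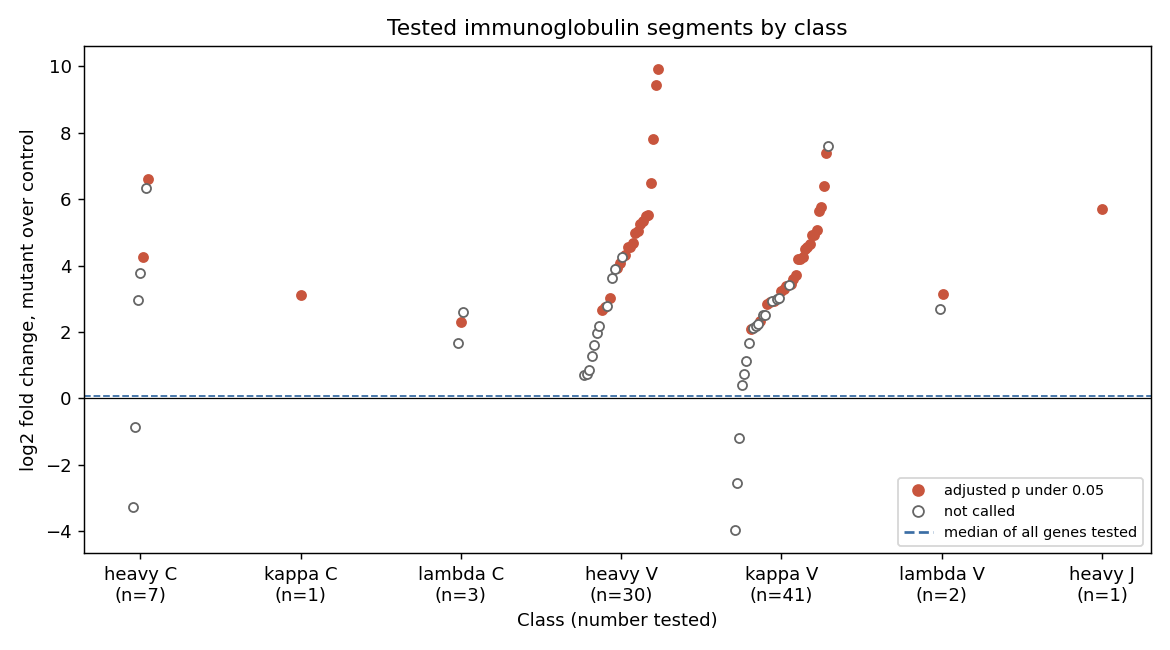
Log2 fold change (mutant over control, vertical axis) of the 85 tested segments, each a point, by class. Filled points had an adjusted p under 0.05 and the dashed line is the median of all genes tested; 49 points are filled, all above 0, and 5 open points lie below 0.

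Igha, the constant gene of IgA, was the constant-region gene with the smallest adjusted p. It had 812, 1729, 866 and 1300 reads in controls 1 to 4, and 23546, 80902, 22466 and 14988 in mutants 1 to 4. The lowest mutant was several times above the highest control. The level was 74.5 ± 28.8 CPM in controls and 1426 ± 1262 CPM in mutants (SD, n = 4 each), a log2 fold change of 4.26 (SE 0.63, edgeR adjusted p = 0.00398). Igha rose in each of the 8 fits that left out 1 library, with a log2 fold change between 3.42, without mutant 2, and 4.54, without control 2.

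Igkc encodes the constant region of the kappa light chain, which pairs with any heavy chain. Its reads were 3482, 1019, 501 and 673 in controls and 10361, 48148, 10104 and 7637 in mutants. Control 1 was the highest control and mutant 2 the highest mutant, and the groups did not overlap. Igkc rose by 3.10 on the log2 scale (SE 0.87, edgeR adjusted p = 0.0393). The call was lost without control 2, 3 or 4, or without mutant 2 or 4, with adjusted p up to 0.103 (without control 2). It was also lost with a Y-linked covariate (adjusted p = 0.121), with a replicate block (0.0606) and without a filter on low counts (0.0952). Without mutant 2 the log2 fold change was 2.05 and without control 1 it was 4.06.

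The IgG genes moved less evenly. Ighg2c, an IgG2 class gene of the C57BL/6 strain, had 0, 4, 7 and 7 reads in controls and 72, 2154, 49 and 489 in mutants. Its groups did not overlap, with mutants 2 and 4 far above mutants 1 and 3. Ighg2c rose by 6.62 on the log2 scale (SE 1.53, edgeR adjusted p = 0.0201). The call was lost without any 1 of the 4 controls (adjusted p up to 0.0631) and the change was 4.87 without mutant 2. The mice were of mixed C57BL/6 and CD1 background, and the part of inherited alleles in the Ighg2c reads was not tested.

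Ighg2b, the IgG2b gene, had 211, 11, 21 and 4 reads in controls and 93, 30059, 110 and 346 in mutants. Mutant 2 alone held nearly all Ighg2b reads of the mutants, and control 1 exceeded mutants 1 and 3. The log2 fold change of 6.33 (SE 2.36) did not pass (edgeR adjusted p = 0.0921), and without mutant 2 it was 0.95 (adjusted p = 0.632). It passed without both control 1 and mutant 2, at 3.29 (adjusted p = 0.0201), a pair chosen after the data had been seen.

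Ighg1 had 15, 20, 11 and 13 reads in controls and 102, 1088, 31 and 39 in mutants. The groups did not overlap in CPM, but mutant 3, with 31 reads, was only just above control 2, with 20. Mutant 2 set most of the mean. The log2 fold change was 3.76 (SE 1.23, edgeR adjusted p = 0.0627), and it was 1.20 without mutant 2 (adjusted p = 0.0426). Ighg3, the IgG3 gene, ran the other way in its counts, with 611, 109, 0 and 0 reads in controls and 1, 69, 8 and 36 in mutants. The controls were split between 2 libraries with many reads and 2 with none, and the log2 fold change of -3.26 (SE 1.89) had an adjusted p of 0.247.

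Ighm and Ighd, the constant genes of the IgM and IgD that B cells carry before class switching, did not pass. Ighm had 2949, 353, 83 and 170 reads in controls and 379, 1446, 181 and 1001 in mutants. Control 1 held most of the control reads and the groups overlapped. The log2 fold change was -0.87 (SE 1.13, edgeR adjusted p = 0.610) and turned to 1.26 without control 1 (adjusted p = 0.341). Ighd had 8, 5, 0 and 16 reads in controls and 85, 255, 4 and 18 in mutants, with mutant 3 below 3 of the controls. Its log2 fold change was 2.96 (SE 1.28, edgeR adjusted p = 0.133).

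Lambda light chains were scarce beside kappa in every library. Iglc1 had 20, 66, 19 and 39 reads in controls and 150, 242, 555 and 139 in mutants. Mutant 3, not mutant 2, was highest for this gene, and the groups did not overlap. Iglc1 rose by 2.29 on the log2 scale (SE 0.63, edgeR adjusted p = 0.0378). The call was lost without control 1, 3 or 4 and without mutant 3 or 4 (adjusted p up to 0.102), and without mutant 3 the change was 1.60. Iglc2 had 56, 9, 8 and 8 reads in controls against 52, 502, 139 and 70 in mutants, with a log2 fold change of 2.61 (adjusted p = 0.0946). In CPM control 1, at 3.52, exceeded mutant 1 at 1.74 and mutant 4 at 3.00. Iglc3 had 1, 24, 3 and 10 reads against 14, 76, 51 and 45, with a log2 fold change of 1.66 (adjusted p = 0.205). Given their similar sequences, the split between Iglc2 and Iglc3 is uncertain.

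**Figure D2:**
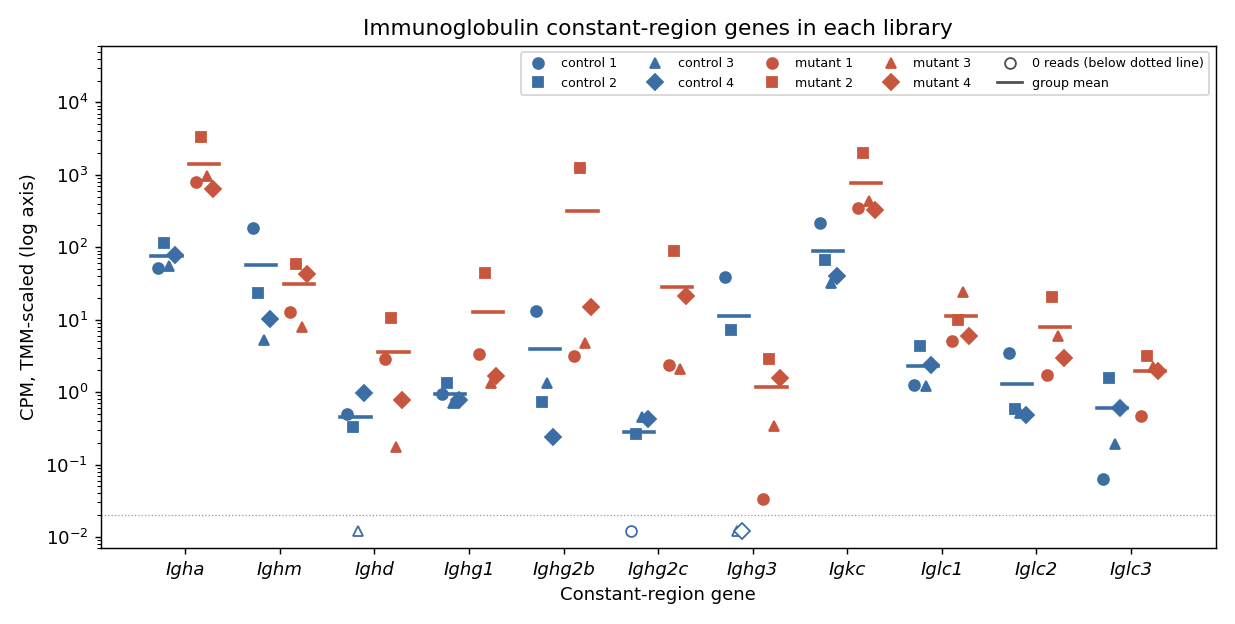
CPM over TMM-scaled library sizes (log axis) of the 11 constant-region genes in each of the 4 control and 4 mutant libraries, with group means as bars; open symbols below the dotted line had 0 reads. Mutants lie above all controls for Igha, Igkc, Ighg1, Ighg2c and Iglc1, and mutant 2 is highest for 10 of the 11 genes in the mutants, Iglc1 being the exception.

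Levels of different genes were compared per length, in the FPKM deposited by the authors. In controls the order of mean levels began with Igkc at 167 ± 163, Ighm at 29.4 ± 45.5 and Igha at 27.6 ± 10.6 FPKM (SD, n = 4). These spreads are between mice. Control 1 alone was at 408 FPKM for Igkc and 97.5 FPKM for Ighm, while Igha was highest, at 42.1 FPKM, in control 2. Within each control Igkc was above both by reads per length. Of the heavy-chain constant FPKM, Igha held 72.3%, 84.1% and 81.5% in controls 2 to 4, and Ighm 20.9%, 11.4% and 15.1%. In control 1 the order was reversed, with 13.8% for Igha and 71.1% for Ighm. In mutants the order began with Igkc at 1437 ± 1496 and Igha at 531 ± 470 FPKM, followed by Ighg2b at 116 ± 227 FPKM. The spreads between mice overlapped, but within each mutant Igkc was above Igha, by reads per length, and Igha above Ighg2b. Leaving aside mutant 2, the Ighg2b levels of the mutants were 1.15, 1.76 and 5.48 FPKM, below those of Ighm at 6.67, 4.12 and 22.5 FPKM.

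The make-up of the heavy-chain constant reads within a library does not depend on library scaling. Igha made up 17.6%, 77.5%, 87.7% and 86.1% of them in controls 1 to 4 and 97.0%, 69.8%, 98.3% and 88.6% in mutants 1 to 4. The groups overlapped, because the share was low in mutant 2. In control 1 the share was far below that of every other library (812 of 4606 reads, 95% Wilson interval 16.6% to 18.8%).

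The share of Ighm was 64.0%, 15.8%, 8.40% and 11.3% in controls and 1.56%, 1.25%, 0.792% and 5.92% in mutants. Every mutant was below every control in this share, including the mutants 2 and 4, whose Ighm level in CPM exceeded 3 of the 4 controls. On FPKM the Ighm share ranged from 11.4% to 71.1% in controls and from 1.11% to 7.94% in mutants, again without overlap. Shares add to a fixed total, so a larger Igha amount lowers the share of Ighm by itself. The share is a description, with no test.

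The 4 IgG genes together made up 18.2%, 6.45%, 3.95% and 1.59% of the heavy-chain constant reads in controls and 1.10%, 28.8%, 0.867% and 5.38% in mutants. Control 1 and mutant 2 were high, through different genes. Ighg3 gave 13.3% and Ighg2b 4.58% in control 1, whereas Ighg2b gave 25.9% and Ighg3 0.0595% in mutant 2. Among light-chain constant reads, Igkc held 97.8%, 91.1%, 94.4% and 92.2% in controls and 98.0%, 98.3%, 93.1% and 96.8% in mutants, with overlap. Within the lambda reads, Iglc2 led in the same pair of libraries, with 72.7% (56 of 77 reads, 95% Wilson interval 61.9% to 81.4%) in control 1 and 61.2% (502 of 820 reads, 57.8% to 64.5%) in mutant 2, and Iglc1 led in the other 6.

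**Figure D3:**
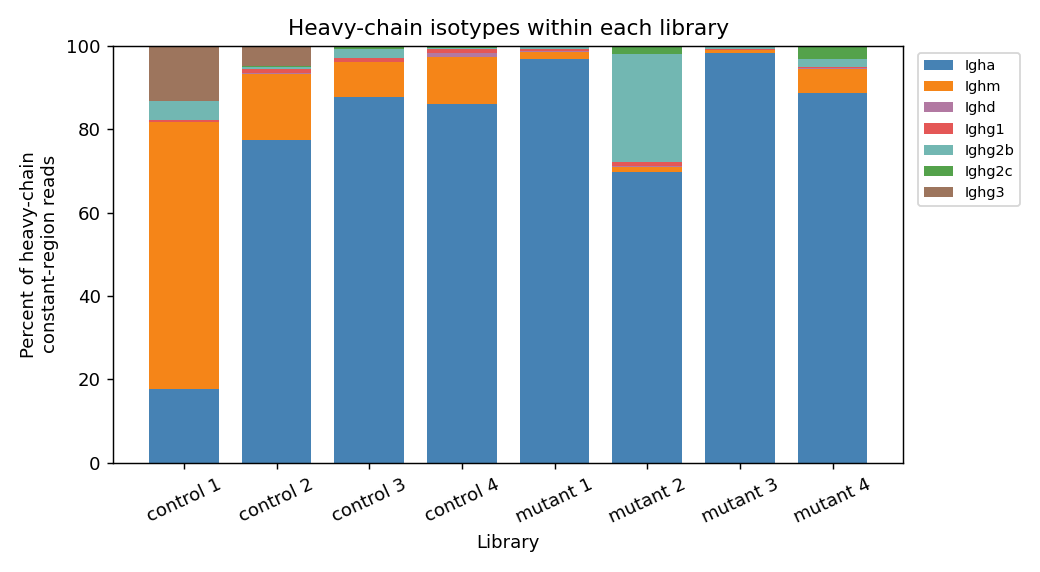
Percent of heavy-chain constant-region reads (vertical axis) held by each of the 7 constant genes in the 8 libraries. Ighm fills 64.0% of the bar of control 1 and at most 5.92% in mutants, and Ighg2b fills 25.9% in mutant 2.

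Heavy-chain V reads were few in controls, with 564, 263, 142 and 176 reads over the 75 members, against 3370, 28810, 2787 and 3343 in mutants. Kappa V reads numbered 1418, 478, 192 and 292 in controls and 6391, 26652, 3828 and 4540 in mutants. Both classes were thus higher in every mutant. The mean CPM was 21.5 times higher in mutants for heavy V (6.93 times without mutant 2) and 11.1 times for kappa V (5.09 times without mutant 2). Only 5 heavy and 7 kappa segments had 3 or more reads in all 4 controls, whereas 50 heavy and 55 kappa segments had 3 or more in all 4 mutants. More reads alone raise such counts, and most members entered through their mutant reads.

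Within the V reads each library had its own leaders. In mutant 2, Ighv1-82 held 12880 of the 28810 heavy V reads (44.7%, 95% Wilson interval 44.1% to 45.3%) and Ighv1-75 held 9244 (32.1%, 31.5% to 32.6%). The kappa V reads of the same mouse were led by Igkv10-96 with 10351 of 26652 reads (38.8%, 38.3% to 39.4%) and Igkv8-30 with 9664 (36.3%, 35.7% to 36.8%). A pair of heavy and a pair of kappa segments thus held 76.8% and 75.1% of the reads of their chains, in the library that also held 30059 Ighg2b reads. Bulk reads do not show which heavy and light chains were made by the same cell.

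In the other mutants the leaders were different segments with smaller shares. Ighv1-34 led in mutant 1 (642 of 3370 reads, 19.1%, 95% Wilson interval 17.8% to 20.4%), Ighv1-53 in mutant 3 (7.46%, 6.55% to 8.50%) and Ighv3-6 in mutant 4 (13.6%, 12.5% to 14.8%). The kappa leaders were Igkv4-72 in mutant 1 (1684 of 6391 reads, 26.3%, 25.3% to 27.4%), Igkv1-110 in mutant 3 (12.1%, 11.1% to 13.1%) and Igkv5-43 in mutant 4 (13.7%, 12.7% to 14.7%). The 4 mutants thus had 4 different heavy and 4 different kappa leaders. Ighv1-34, Ighv3-6 and Igkv5-43, like the leaders of the controls below, were singled out after their values had been seen.

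Control 1 stood apart among the controls. Ighv11-2 held 172 of its 564 heavy V reads (30.5%, 95% Wilson interval 26.8% to 34.4%), and Igkv14-126 held 446 of its 1418 kappa V reads (31.5%, 29.1% to 33.9%). Paired as heavy and light chain, these segments form the antibody against phosphatidylcholine that is typical of B-1a cells, a self-renewing B cell type of the body cavities that makes IgM. Control 1 was also the library with 2949 Ighm reads. Ighv11-2 had 8, 4 and 3 reads in the other controls and 0, 11, 2 and 0 in mutants, and did not have enough reads to be tested. Its share of heavy V reads, 30.5%, 3.04%, 2.82% and 1.70% in controls, was above that of every mutant, at 0%, 0.0382%, 0.0718% and 0%. With 3370 and 3343 heavy V reads, the counts of 0 in mutants 1 and 4 allow shares up to 0.114% and 0.115% (upper 95% Wilson bounds).

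Igkv14-126 had 446, 41, 0 and 11 reads in controls and 1, 23, 22 and 2 in mutants. Control 1 held most of them and the groups overlapped. The log2 fold change of -3.97 (SE 1.73) did not pass (edgeR adjusted p = 0.137). Igkv4-80, second among the kappa reads of control 1 with 176 reads, had 14, 0 and 3 in the other controls and 26, 25, 3 and 0 in mutants, a log2 fold change of -2.56 (adjusted p = 0.285) that turned to 0.50 without control 1 (adjusted p = 0.839). Ighv1-80 led in control 3 (45 of 142 heavy V reads, 31.7%, 95% Wilson interval 24.6% to 39.7%) and Ighv1-76 in control 2 (51 of 263 reads, 19.4%, 15.1% to 24.6%), whereas in control 4 no heavy segment held more than 11 of 176 reads.

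The effective number of segments, the exponential of the Shannon entropy of their read shares, counts how many equally used segments would give the same spread. For heavy V it was 10.5, 19.9, 15.2 and 33.0 in controls and 33.0, 5.23, 44.7 and 30.9 in mutants. For kappa V it was 11.8, 24.7, 14.0 and 32.7 in controls and 19.6, 6.10, 39.4 and 29.4 in mutants. Mutant 2 was lowest for both chains and mutant 3 highest, and the groups overlapped. These numbers cover members only, most of which entered through their mutant reads.

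Reduced to the depth of the shallowest library, 142 heavy V reads, the expected number of segments seen was 20.5, 28.6, 31.0 and 39.1 in controls and 42.6, 14.9, 46.5 and 40.9 in mutants. At 192 kappa V reads it was 25.8, 35.3, 27.0 and 44.8 in controls and 39.5, 21.1, 49.5 and 42.3 in mutants. Only members were counted, and 60 of the 75 heavy and 51 of the 74 kappa segments had under 20 control reads in all. Immunoglobulin segments of any kind under the threshold, with 3, 33, 0 and 1 reads in controls and 62, 71, 49 and 61 in mutants, were left out. At equal depth the 3 mutants other than mutant 2 lay above all controls for heavy V, while for kappa V control 4 lay above mutants 1 and 4. Members were chosen largely by mutant reads, and the part of that choice in this comparison was not tested. Reads of 1 plasma cell can be many, so these intervals and numbers cover counting error over reads and not over cells.

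**Figure D4:**
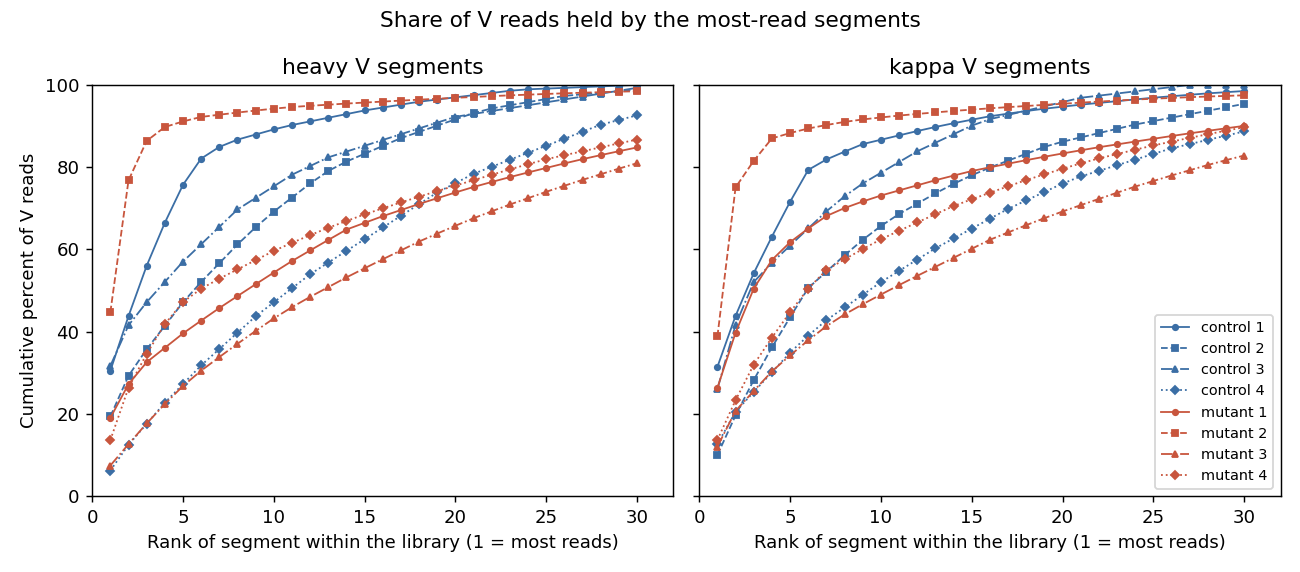
Cumulative percent of V reads (vertical axis) against the rank of the segment within each library (horizontal axis), for 75 heavy and 74 kappa segments, with the first 30 ranks shown. The curve of mutant 2 passes 75% at the second segment for both chains, 76.8% and 75.1%, and from the third segment to the fifteenth that of control 1 is the next highest.

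The V segments with the most reads mostly followed mutant 2. Ighv1-82 had 4, 0, 0 and 8 reads in controls and 96, 12880, 92 and 47 in mutants, above every control in all 4. It rose by 9.43 on the log2 scale (SE 2.61, edgeR adjusted p = 0.0375), and by 3.99 without mutant 2 (adjusted p = 0.00192); without any 1 of the controls the call was lost, with adjusted p up to 0.103. Ighv1-75 had 6 control reads, all in control 3, and 276, 9244, 10 and 44 in mutants. It had the largest rise of a tested member, 9.92 (SE 2.78, edgeR adjusted p = 0.0385), which was 5.27 without mutant 2 and lost its call without any 1 of the controls (adjusted p up to 0.149).

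Igkv10-96 was also led by mutant 2, with 5, 19, 9 and 9 reads in controls and 276, 10351, 182 and 261 in mutants. Its groups were far apart in every mutant. It rose by 7.39 (SE 1.78, edgeR adjusted p = 0.0233) and by 3.81 without mutant 2 (adjusted p = 3.56e-05), and without any 1 of the controls the adjusted p was up to 0.0763. Igkv8-30 differed, with 7, 19, 0 and 6 reads in controls and 27, 9664, 24 and 4 in mutants. Outside mutant 2 its mutants overlapped the controls, the log2 fold change of 7.60 (SE 2.67) did not pass (edgeR adjusted p = 0.0777), and without mutant 2 it was 0.47 (adjusted p = 0.715).

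Ighv1-26 had 10, 26, 7 and 5 reads in controls and 85, 2765, 104 and 81 in mutants, and rose by 5.33 (SE 1.52, edgeR adjusted p = 0.0417), or 2.22 without mutant 2. Ighv5-17 had 16, 0, 2 and 6 reads against 103, 974, 87 and 22, and rose by 4.98 (SE 1.44, edgeR adjusted p = 0.0438). It was the 1 called member of the 49 whose groups overlapped in CPM, mutant 4 being just under control 1. Both calls were lost without any 1 of the controls (adjusted p up to 0.114 for Ighv1-26 and 0.117 for Ighv5-17), and that of Ighv5-17 also without mutant 1. Ighv1-12 (0, 15, 8 and 11 reads against 16, 390, 61 and 179, log2 fold change 3.62, adjusted p = 0.0585) and Igkv6-15 (110, 8, 2 and 7 against 79, 1450, 149 and 392, log2 fold change 3.41, adjusted p = 0.108) did not pass.

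The rises of some other V segments did not rest on mutant 2. Igkv1-110 had 26, 48, 30 and 37 reads in controls and 685, 293, 462 and 280 in mutants, and mutant 2 was not the highest. The level was 2.23 ± 0.665 CPM in controls and 16.7 ± 5.57 CPM in mutants (SD, n = 4 each). It rose by 2.90 (SE 0.32, edgeR adjusted p = 0.00151), the smallest adjusted p of all members, and stayed between 2.71 and 3.11 when 1 library was left out.

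Ighv1-53 had 3, 6, 6 and 7 reads in controls and 105, 68, 208 and 426 in mutants, with mutant 2 the lowest mutant, and rose by 4.57 (SE 0.72, edgeR adjusted p = 0.00483). Igkv1-117 had 6, 35, 20 and 14 reads against 445, 1720, 332 and 299, with mutant 2 highest, and rose by 4.55 (SE 0.80, edgeR adjusted p = 0.00767). Both held in all 8 fits with 1 library left out. Igkv4-72 had 4, 5, 0 and 3 reads against 1684, 99, 62 and 71, so that mutant 1 led, and rose by 6.40 (SE 1.44, edgeR adjusted p = 0.0182), or 4.06 without mutant 1; without any 1 of the controls the adjusted p was up to 0.0602. Ighv1-19 had no read in any control and 31, 13, 46 and 44 in mutants. Against a floor of 3 reads per control library it was at least 7.18-fold higher, and it passed the test (edgeR adjusted p = 0.00908). Ighv1-19 entered through its mutant reads alone, so that pass is no support on its own.

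Lambda V segments are few in the mouse. Iglv1 had 53, 80, 17 and 39 reads in controls and 292, 1394, 520 and 375 in mutants, without overlap, and rose by 3.13 (SE 0.66, edgeR adjusted p = 0.0148), a call that held in all 8 fits with 1 library left out (adjusted p up to 0.04995). Iglv2 had 29, 2, 8 and 4 reads against 39, 268, 92 and 34, with a log2 fold change of 2.70 (adjusted p = 0.0837). Iglv3, with 2, 0, 0 and 0 reads against 11, 52, 10 and 8, was not tested, and its scaled ratio was 25.5 (95% exact interval 6.83 to 214, counting error only).

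J segments are short exons and caught few reads, 29, 0, 4 and 4 on the 4 heavy J members in controls and 111, 122, 41 and 22 in mutants. The heavy J segments are shown because Ighj4 was the only one of them with enough reads to test. They lie on the minus strand of chromosome 12, from Ighj1 at chr12:113429781-113429833 to Ighj4 at chr12:113428514-113428567 (GRCm38), and the capitals mark the letters TGGGGNNNNGGN, the tryptophan and glycine motif that all 4 share.
Ighj1: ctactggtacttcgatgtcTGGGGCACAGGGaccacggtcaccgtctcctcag
Ighj2: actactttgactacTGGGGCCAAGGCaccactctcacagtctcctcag
Ighj3: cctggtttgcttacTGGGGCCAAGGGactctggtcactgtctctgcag
Ighj4: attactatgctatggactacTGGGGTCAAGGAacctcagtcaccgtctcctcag
Ighj4 had 2, 0, 0 and 0 reads in controls and 103, 68, 23 and 13 in mutants. Every mutant was above every control, with a scaled ratio of pooled reads of 65.1 (95% exact interval 17.8 to 541, counting error only). It passed the test (edgeR adjusted p = 0.00913) and did so in all 8 fits with 1 library left out. Having 2 control reads, Ighj4 became a member through the mutants, so these passes are no support on their own. Ighj1 had 17, 0, 2 and 2 reads in controls and 3, 10, 12 and 5 in mutants, and Ighj2 8, 0, 2 and 0 against 1, 13, 0 and 1, with control 1 the highest control in both. The 5 kappa J members had 0, 3, 0 and 0 reads in all in controls and 37, 207, 27 and 19 in mutants. None had enough reads to be tested. The most read, Igkj5, had 1 control read and 11, 64, 10 and 10 in mutants (ratio 59.8, 95% exact interval 10.5 to 2385).

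Ratios between the members and other transcripts of antibody-secreting cells were compared within libraries. Heavy-chain constant reads per Jchain read were 10.4, 9.66, 9.23 and 9.04 in controls and 6.05, 8.38, 6.58 and 7.98 in mutants, lower in every mutant. Igha reads per Jchain read were 7.48, 8.09 and 7.78 in controls 2 to 4 and 5.87, 5.85, 6.47 and 7.07 in mutants, while control 1 was at 1.84. Light-chain constant reads per heavy-chain constant read were 0.773, 0.501, 0.537 and 0.483 in controls and 0.436, 0.422, 0.475 and 0.466 in mutants. Between mice, the heavy-chain constant reads per Jchain read thus varied far less than the reads of either. Heavy V reads per heavy-chain constant read were 0.122, 0.118, 0.144 and 0.117 in controls and 0.139, 0.248, 0.122 and 0.198 in mutants, highest in mutant 2, with overlap. Igha reads per read of Ptprc, the pan-leukocyte CD45 gene, were 7.25, 10.2, 6.66 and 7.83 in controls and 32.5, 24.3, 78.0 and 23.0 in mutants, higher in every mutant.

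Genes outside the immunoglobulin loci were read from lists of plasma cell, B cell and related genes. Of 14 tested plasma cell genes 7 rose and 2 fell, with a median log2 fold change of 1.24. Over all genes tested 9.39% rose and 10.8% fell. Jchain had 441, 231, 107 and 167 reads in controls and 4010, 13838, 3472 and 2119 in mutants, and rose by 3.98 (SE 0.73, edgeR adjusted p = 0.00893). Pou2af1, a coactivator of immunoglobulin transcription, rose by 4.03 (SE 0.79, edgeR adjusted p = 0.0111), from 0.641 ± 0.359 to 10.6 ± 11.2 CPM. Derl3, which helps to remove misfolded protein from the endoplasmic reticulum, fell by 1.65 (SE 0.34, edgeR adjusted p = 0.0140). These 3 calls held in all 8 fits with 1 library left out. Mzb1, an endoplasmic reticulum protein of antibody-making cells, rose by 3.96 (adjusted p = 0.0204, lost without control 2 or control 4, with adjusted p up to 0.0648). The other rises were those of Sdc1, Irf4, Tnfrsf13b and Slamf7, each lost in at least 3 of the 8 fits, and the other fall was that of Ell2, lost in 4 of them. Xbp1, the secretory transcription factor, was at 456 ± 29.8 CPM in controls and 421 ± 34.5 CPM in mutants, with an adjusted p of 0.531. Sdc1, Xbp1, Derl3 and Ell2 are also known from secretory or epithelial cells, and in controls they were at 172, 456, 27.8 and 155 CPM beside 14.9 CPM for Jchain. The summed list lay between 815 and 931 CPM in controls and between 960 and 1738 CPM in mutants. The number of plasma cell genes that rose was 2 without control 4 and also 2 without both libraries with squamous transcripts. Of all genes 5.77% and 3.67% rose in these fits.

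Markers of B cells that do not yet secrete antibody were read next. Of 9 tested B cell genes 2 rose, Spib and Blk, and none fell (all genes tested: 9.39% and 10.8%). At an unadjusted p under 0.05 no member was lower (17.5% of all genes were). Spib had 52, 57, 45 and 61 reads in controls and 411, 1231, 359 and 523 in mutants, and rose by 2.91 (SE 0.43, edgeR adjusted p = 0.00409, held in all 8 fits). Blk, a kinase of the B cell receptor, had 0, 6, 4 and 12 reads against 161, 493, 32 and 23, and rose by 4.32 (SE 1.23, adjusted p = 0.0407, lost without any 1 of the controls and without mutant 1). Cd79a, a chain of the B cell receptor, had 14, 7, 5 and 32 reads against 56, 362, 53 and 30, with a log2 fold change of 2.49 (adjusted p = 0.0958). Mutant 2 had the highest level of each of these genes, and the groups overlapped for Cd79a. The B cell list summed to 6.00 to 15.0 CPM in controls and 21.7 to 145 CPM in mutants. Whether the share of plasma cell and B cell genes that rose differed was not tested.

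Genes of IgA transport and homing gave 3 rises among 7 tested, where 9.39% of all genes tested rose. Pigr had 303, 254, 195 and 103 reads in controls and 138374, 83532, 40321 and 79055 in mutants, and rose by 7.92 (SE 0.54, edgeR adjusted p = 0.000536, held in all 8 fits). Mutant 2 was not the highest for this epithelial gene. Itga4, an integrin of homing lymphocytes, rose by 2.21 (SE 0.50, adjusted p = 0.0183, lost without control 1 or 3), and Ccl28, a chemokine that attracts IgA plasma cells, by 2.31 (SE 0.60, adjusted p = 0.0304). Ccl28 was at 41.4 CPM in mutant 1 and 5.23 CPM in mutant 2, below control 1 and control 4, and its call was lost without any 1 of the controls, mutant 1 or mutant 4.

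**Figure D5:**
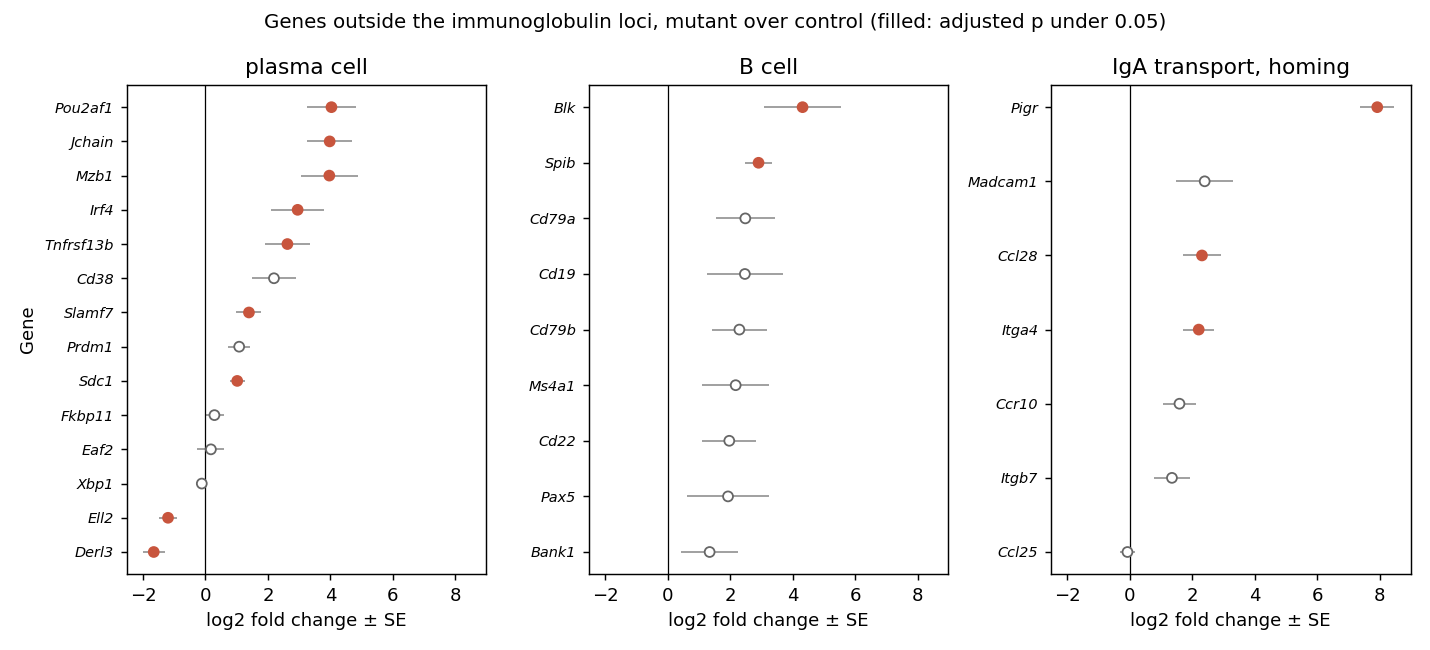
Log2 fold change with SE (horizontal axis) of tested genes of the plasma cell, B cell and IgA transport lists; filled points had an adjusted p under 0.05. Jchain, Pou2af1 and Mzb1 lie near 4, Pigr at 7.92, and Derl3 and Ell2 below 0.

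The other immune lists with tested genes held 1 to 4 rises each and no fall, where 9.39% of all genes tested rose and 10.8% fell. Rgs13, of germinal centre B cells and also of tuft cells, rose by 2.42 (edgeR adjusted p = 0.00436) as the 1 call among 5 tested germinal centre genes, and Tnfsf13 (APRIL, a plasma cell survival factor) rose by 2.91 (adjusted p = 0.00494) among 4 tested cytokine genes. Cxcl13, a chemokine of B cell follicles, rose by 2.29 (adjusted p = 0.0104) among 3 tested lymphoid chemokine genes. These 3 calls held in all 8 fits with 1 library left out. Of 8 Fc receptor genes 4 rose, and Fcamr, a receptor for IgA and IgM, had the smallest p (log2 fold change 3.43, adjusted p = 0.0137). Of 9 tested T cell genes 4 rose and of 6 pan-leukocyte genes 3 rose. The T cell list summed to 7.92 to 10.5 CPM in controls and to 9.83 (mutant 3) to 76.8 CPM (mutant 2) in mutants, and mutant 3 lay within the range of the controls for this list and for the pan-leukocyte list (171 CPM against 155 to 205). With 1 library left out, Ptprc, Cd53 and Cd3g were called in 3 of 8 fits, Cd52 and Cd3d in 2, Cd5 in 5 and Cd3e in 6. The part of these genes in the immunoglobulin values was not tested. Genes of V(D)J recombination were near absent, with Rag1, Rag2 and Vpreb2 at 0 in every library, and no gene of the spleen list had enough reads to be tested.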

How the data were processed

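Raw counts of reads per gene were deposited by the authors, as were FPKM values, and the biotype given in both tables was used to find the segments. CASAVA, fastp, STAR 2.5 and featureCounts are named, without roles, in the submitters' processing notes. Per the labels' protocols, tissue was kept in RNAlater, Trizol was used to extract RNA, and a NEBNext Ultra kit to make the libraries. Not given in the sources used here are the genome build, the strand setting and the treatment of multiply matching reads. All 172 segments had the coordinates of GENCODE M21 (GRCm38), from which the printed sequences were read. RefSeq promoter entries matched no member. The column SCI was taken for control 1 (SC1).

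After filterByExpr and TMM scaling, mutants were compared with controls by the quasi-likelihood test of edgeR 4.0.16 (robust, no covariates, in R 4.3.3), with Benjamini-Hochberg adjustment over all genes tested and a threshold of 0.05. Adjusted p-values come from it except where another tool is given. CPM are counts over TMM library sizes. The floor, 3 counts in 1 library, averaged 0.189 CPM for controls and 0.120 CPM for mutants. Shares have 95% Wilson intervals, and intervals and floors cover counting error only. Libraries of a group always differed by more than sampling noise (chi-square per degree of freedom of 15.0 or more). Alternatives were DESeq2 1.42.0, limma 3.58.1 on log2(FPKM + 1) and log2(FPKM + 0.1), other scalings, filters and thresholds, a replicate block, a Y-linked covariate and leaving out libraries. Dropping control 3 with mutant 3, and control 1 with mutant 2, was chosen after seeing the data.

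The members, the lists and the naming rule were chosen with earlier results of these data known. Named were all constant genes, the 6 heavy and 6 kappa V segments with the most reads, all lambda V segments, the 2 J segments with the most reads, the 3 largest rises among called V segments, the segments around the threshold, and up to 3 tested genes of each other list by p. Others were named after their values were seen. A part of the rule that would take genes by correlation over the 8 libraries was not used, because the groups form separate clusters.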

Additional observations from a re-analysis of the deposited data

Results flagged for a closer look

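In groups of 4 libraries, a library was singled out where its gap to the nearest other exceeded, as a part of the group's range, Dixon's 95% critical value, which chance does in about 1 in 20 groups. Such gaps were found for 14 values of the immunoglobulin segments. The number of values screened is not given here, so the 14 cannot be set against that rate. In mutant 2 the highest values were the summed members at 9096 CPM (1421 to 1768 in the other mutants), the heavy V segments at 1178 CPM (113 to 143) and the kappa V segments at 1090 CPM (165 to 213). Of its constant genes, Igha was at 3308 CPM (642 to 969), Igkc at 1969 CPM (327 to 436), Ighg2b at 1229 CPM (3.11 to 14.8) and Ighg1 at 44.5 CPM (1.34 to 3.41). The IgG share of heavy-chain constant reads in mutant 2 was 28.8% (0.867% to 5.38%).

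In control 1, Ighm was at 185 CPM (5.30 to 23.3 in the other controls), Ighg2b at 13.2 CPM (0.239 to 1.34) and Iglc2 at 3.52 CPM (0.479 to 0.593). The Ighm share of heavy-chain constant reads in control 1 was 64.0% (8.40% to 15.8%) and the Igha share 17.6% (77.5% to 87.7%). In mutant 4 the Ighm share was 5.92% (0.792% to 1.56%). These values share libraries and reads, so the 14 are not independent.

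Immunoglobulin pseudogenes, which are outside the 4 biotypes, had 64 reads in the mutants (31, 23, 5 and 5) and 7 in the controls (5, 0, 0 and 2).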

How the results depend on the processing

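Over all alternatives, log2 fold changes of single named genes kept their side of the threshold in 486 cases, lost a call in 96 and gained one in 23. None of the 49 called members changed sign. Among the other tested members, Ighm, Igkv17-121 and Igkv4-80 turned from below to above 0 without control 1 (1.26, 1.37 and 0.50), as did Igkv17-121 without control 1 and mutant 2 (1.66, adjusted p = 0.0335) and Ighm with a replicate block (0.36), and Igkv4-68 and Igkv5-48 turned below 0 in fits with fewer libraries. Of the 85 tested members 49 rose, and 15 did at an adjusted p under 0.01. With a CPM of at least 1 in 4 libraries 32 of 57 tested members rose. With limma on log2(FPKM + 0.1) 76 of 160 rose, and without both squamous libraries 26 of 89. Of all genes 9.86%, 8.20% and 3.67% rose in these fits, in that order, against 9.39% in the main test. With 1 library left out, the members that rose ranged from 31 of 113 tested (4.32% of all genes) to 62 of 94 (15.2%). For the plasma cell list, 7 rose, against 11 with column totals, 3 with a Y-linked covariate, 4 with limma on log2(FPKM + 1), 4 on log2(FPKM + 0.1), 3 on log2(FPKM + 1) without a filter, 2 without both squamous libraries, 1 at an adjusted p under 0.01, and 2 to 9 with 1 library left out. Its 2 falls became 1 with column totals, 1 with limma without a filter, 1 without both squamous libraries, 0 at an adjusted p under 0.01, and 1 to 2 with 1 library left out. The 2 rises of the B cell list became 6 with column totals, 1 without a low-count filter, with a Y-linked covariate, with each limma fit, without both squamous libraries and at an adjusted p under 0.01, and 1 to 3 with 1 library left out. Of all genes, 59.3% rose with column totals, 5.59% with the covariate and 3.95% without a low-count filter. The limma fits called 7.31% (FPKM + 1), 8.20% (FPKM + 0.1) and 2.83% (no filter) of all genes higher. With 1 library left out the share ranged from 4.08% to 15.2%. Lower were 724 of 15862 genes with column totals, 1436 of 29210 with limma without a filter and 823 of 16005 without both squamous libraries. The causes were not tested. The mean Ighm share of heavy-chain constant reads in controls, 24.9%, was 11.8% without control 1, and that in mutants, 2.38%, was 1.20% without mutant 4. The mean IgG share was 9.03% in mutants and 2.45% without mutant 2, and 7.54% in controls and 4.00% without control 1. No pairing by replicate number is given in the labels. Same-numbered libraries correlated at 0.0367, -0.05005, 0.0657 and -0.00235 in their deviations from the group means. With 4 libraries per group, such values cannot exclude a shared litter or batch. With a replicate block, 31 members (29 of the 49), 4 plasma cell genes and 1 B cell gene rose, and 4.71% of all genes did. Depth limits the controls most, where 121 of 172 members had under 20 reads in all.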
